A study of Mus musculus with 100 samples.

Results

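In resting macrophages the nuclear receptor corepressor NCoR is bound at many enhancers, and after activation of TLR4 it leaves some of them. The sites described here were distal NCoR peaks that lost binding with Kdo2 lipid A (KLA), the TLR4 agonist that mimics bacterial lipopolysaccharide. They were chosen on the NCoR tags themselves. A site lay more than 2000 bp from a transcription start site (TSS), had a mean of at least 50 tags per 10 M in the libraries treated with vehicle (Veh), and had a ratio of (KLA + 5) to (Veh + 5) of 0.33 or less. Of 55045 NCoR peaks, 44067 were distal and 17636 of these reached the Veh minimum. The rule found 2181 lost sites, 12.4% of the 17636. For comparison, 7673 distal sites with the same Veh minimum had a ratio between 0.67 and 1.5 (kept sites), and 3054 met the mirrored rule (gained sites).

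Binding and histone acetylation were mapped by ChIP-seq (chromatin immunoprecipitation, then sequencing) in macrophages grown from mouse bone marrow (BMDMs), with 100 samples in 50 groups of 2 libraries each. Tag counts of 70 libraries in 15 tables were used, and 30 input libraries were not analysed here. NCoR, the deacetylase HDAC3, the lineage factor PU.1, the NFκB subunit p65, the AP-1 subunit Fosl2, the acetyltransferase p300, the coactivator PGC1β and the kinase ERK1 were profiled in BMDMs labelled wild type (WT), with Veh or with KLA for 6 h. The p300 controls are titled Veh, but their library names give KLA for 0 h. Those of NCoR, HDAC3, PU.1, p65 and Fosl2 give Veh for 6 h. The p300 comparison may therefore not be matched for time in vehicle. The study's methods call the replicates biological, without saying whether the 2 libraries of a group came from separate animals, so p-values measure the spread between these libraries only.

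Further groups perturbed the response. NCoR and PGC1β were also profiled with KLA after the ERK inhibitor LY3214996 (ERKi), PGC1β with its solvent DMSO. H3K27ac, the acetylated form of lysine 27 on histone H3 that marks active enhancers and promoters, was profiled in WT BMDMs with DMSO and Veh, DMSO and KLA, or the HDAC3 inhibitor RGFP966 and KLA. It was also profiled with Veh or KLA in NCoR flox/flox cells without Cre (titled WT) and with LysMCre (NKO), and in PGC1b flox/flox cells without and with LysMCre. LysMCre deletes floxed exons in myeloid cells, and H3K27ac tags do not measure how complete the deletion was. p300 and ERK1 were additionally profiled in wild-type bone marrow cells at day 0 and day 4 of osteoclast differentiation. The study's methods give young adult C57BL/6 mice as the source of the bone marrow.

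Library totals were 4.30 to 21.5 M tags, of which 2.79% to 52.8% lay in the regions of their table. In the H3K27ac libraries of the Pgc1b and RGFP966 experiments, promoter regions of 5 of 5 macrophage genes (Adgre1, Cd68, Itgam, Lyz2 and Spi1) held 124 to 843 tags per 10 M. None of 4 genes of T cells, NK cells, epithelium and fibroblasts (Cd3e, Ncr1, Epcam and Col1a1) had an open promoter region in these tables. In the narrow regions of the NKO experiment, 3 of the 5 macrophage genes had a promoter region.

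NCoR has no DNA-binding domain of its own and is brought to DNA by transcription factors, classically by nuclear receptors without an activating ligand, whose core half-site reads AGGTCA. It binds and activates HDAC3, which removes acetyl groups from histone tails. In macrophages most enhancers are opened by PU.1 together with factors such as AP-1, C/EBP, RUNX and MAF proteins, and TLR4 signalling brings NFκB and further AP-1 to enhancers of inflammatory genes.

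The central 200 bp of 7 lost sites are shown, read from mm10 on the plus strand. Capitals mark matches on either strand to the PU.1 core GGAAGT, the AP-1 site TGANTCA, the C/EBP site TTGCNNAA, the nuclear receptor half-site AGGTCA, the MAF half-site TGCTGAC, the NFκB site GGGNNTTCC or the MiT site TCANGTGA. The sites at Angptl4, a secreted inhibitor of lipoprotein lipase, and B3gntl1 are shown as examples of the 10 lowest NCoR ratios. The site at Xirp1 had among the most NCoR tags with Veh. The site at Itgav (integrin alpha V) is shown because H3K27ac rose there with KLA. At Klf4 (a zinc finger factor of monocytes and macrophages) and Cd300a (an inhibitory receptor) it fell, as at most lost sites where it was measured. The site at Ski (a repressor of SMAD signalling) is an example of a site that kept more of its PU.1. A site is named by the gene with the nearest TSS, which implies no regulation of that gene.
Angptl4, chr17:33779344-33779543: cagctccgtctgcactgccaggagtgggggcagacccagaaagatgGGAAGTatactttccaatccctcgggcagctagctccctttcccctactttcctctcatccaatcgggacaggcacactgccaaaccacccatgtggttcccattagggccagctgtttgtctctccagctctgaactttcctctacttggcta
B3gntl1, chr11:121686829-121687028: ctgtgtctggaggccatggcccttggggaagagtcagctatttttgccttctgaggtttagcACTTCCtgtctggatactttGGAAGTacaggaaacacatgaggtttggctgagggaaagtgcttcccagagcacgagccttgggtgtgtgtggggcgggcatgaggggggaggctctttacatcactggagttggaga
Xirp1, chr9:120037511-120037710: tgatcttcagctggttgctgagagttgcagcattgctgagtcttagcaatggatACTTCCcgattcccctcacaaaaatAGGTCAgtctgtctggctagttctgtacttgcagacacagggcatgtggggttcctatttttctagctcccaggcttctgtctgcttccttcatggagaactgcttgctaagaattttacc
Itgav, chr2:83714846-83715045: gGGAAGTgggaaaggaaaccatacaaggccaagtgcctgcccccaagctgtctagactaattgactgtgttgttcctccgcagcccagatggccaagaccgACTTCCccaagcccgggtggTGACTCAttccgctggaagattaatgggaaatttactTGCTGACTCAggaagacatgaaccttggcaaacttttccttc
Klf4, chr4:55741485-55741684: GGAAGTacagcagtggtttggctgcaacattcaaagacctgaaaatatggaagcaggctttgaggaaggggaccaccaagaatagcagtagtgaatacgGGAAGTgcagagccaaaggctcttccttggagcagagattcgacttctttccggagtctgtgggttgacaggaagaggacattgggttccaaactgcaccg
Ski, chr4:155200832-155201031: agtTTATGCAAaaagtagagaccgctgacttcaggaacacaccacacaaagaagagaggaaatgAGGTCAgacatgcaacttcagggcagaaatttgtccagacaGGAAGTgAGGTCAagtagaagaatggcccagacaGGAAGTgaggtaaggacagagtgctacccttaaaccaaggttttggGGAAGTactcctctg
Cd300a, chr11:114903421-114903620: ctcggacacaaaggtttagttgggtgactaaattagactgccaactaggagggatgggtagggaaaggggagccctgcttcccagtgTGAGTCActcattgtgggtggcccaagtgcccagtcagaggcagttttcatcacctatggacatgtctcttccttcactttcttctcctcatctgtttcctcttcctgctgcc

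Over the 2181 lost sites the median NCoR level was 89.6 and 106 tags per 10 M in the 2 Veh libraries and 19.4 and 18.0 in the 2 KLA libraries. Both KLA libraries lay below both Veh libraries at every lost site. In the fit over all peaks 16.7% were called lower with KLA, and all 2181 lost sites were among them, since the same libraries chose them. The mean with Veh ran from 50.3 to 896 (median 97.1) and the mean with KLA from 0 to 241 (median 18.4). The ratio ran from 0.0444 to 0.33 with a median of 0.247. It was 0.2 or less at 637 lost sites (29.2%) and 0.1 or less at 58. At 1012 sites (46.4%) the KLA mean was 20 or more, and 2 sites had no tag in either KLA library. For comparison, gained sites had a median Veh mean of 11.8 with an upper quartile of 20.1. The input libraries were not analysed, so no background level is known and how complete the loss was cannot be said. In the authors' reproducible peak sets, 1140 lost sites (52.3%) were peaks with Veh only and 1035 (47.5%) were peaks under both conditions.

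**Figure D1:**
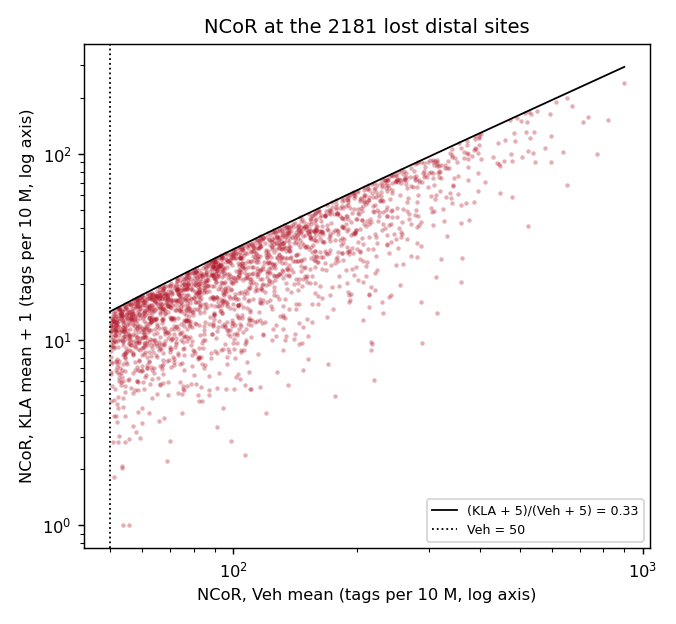
Mean NCoR tags per 10 M with Veh (x axis) and with KLA plus 1 (y axis), both on log axes, with 1 point per lost site and lines at the limits of the rule (ratio 0.33 and Veh mean 50). The 2181 sites have Veh means of 50.3 to 896 and KLA means of 0 to 241, and many lie close to the ratio limit.

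**Figure D2:**
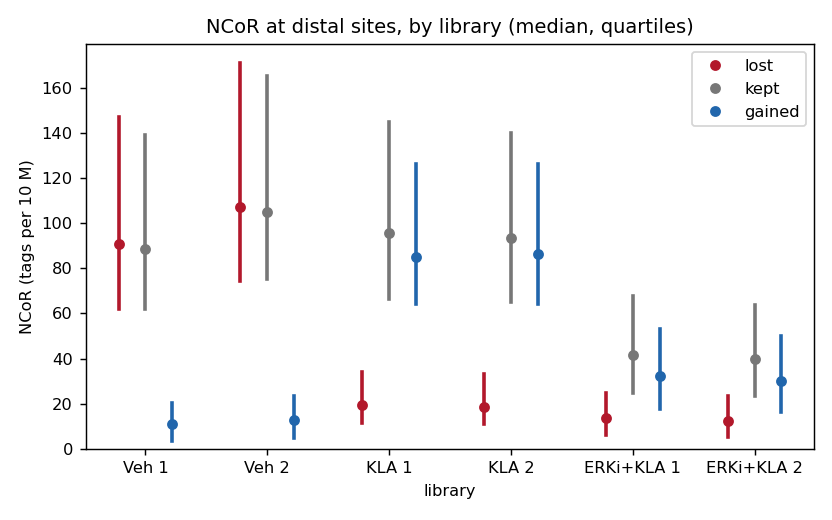
NCoR tags per 10 M in each of 6 libraries at lost, kept and gained sites, with points at the median and bars over the quartiles of the sites. Lost sites had medians of 90.8 and 107 with Veh, 19.4 and 18.7 with KLA, and 13.5 and 12.1 with ERKi and KLA. Tags were counted in the peaks joined with those of the ERKi libraries, so the Veh and KLA medians differ slightly from those in the text.

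The members nearest to the ratio threshold on the inside were Prps1l1 (26.9 kb from the TSS), with 74.1 and 113 tags per 10 M with Veh and 30.8 and 24.2 with KLA, and Cyb5r3 (5.3 kb), with 50.2 and 63.6 against 12.1 and 18.7. Just outside it lay Psap (10.2 kb), with 93.2 and 37.7 against 17.8 and 18.7, and Lrmp (3.8 kb), with 99.2 and 83.6 against 30.8 and 22.8. All 4 had a rounded ratio of 0.33, so the threshold cuts through a continuum.

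The lowest ratio was found at B3gntl1 (0.0444; 13.8 kb upstream of its TSS), where NCoR had 184 and 258 tags per 10 M with Veh and 7.29 and 2.77 with KLA. Plxnb1, which encodes a semaphorin receptor, followed with 296 and 280 against 8.1 and 8.99 (0.0462). At Angptl4, where the site lies in intron 3 of 6, the level was 264 and 365 with Veh and 11.3 and 14.5 with KLA (0.0561). At each of the 3 sites both KLA values lay far below both Veh values. The other 7 of the 10 lowest ratios, from 0.0493 to 0.0652, lay near Stk32c, Gpr34, 1700027F06Rik, Socs6, Mvb12b, Selenof and Olfm2.

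The most tags with Veh were seen 6.6 kb upstream of A230028O05Rik, with 850 and 943 tags per 10 M falling to 249 and 232 with KLA. Xirp1 (14 kb upstream) had 791 and 854 against 156 and 148, and Plekho2 (27.7 kb downstream) had 654 and 890 against 93.1 and 106. Gm10782 and Zswim6 completed the 5 highest, with 699 to 771 tags in the Veh libraries and 142 to 165 in the KLA libraries. By their means, these 5 sites held more NCoR with KLA (99.5 to 241) than the median lost site held with Veh (97.1).

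Most lost sites lay in introns (1111, 50.9%) or between genes (997, 45.7%), close to the shares of kept sites (50.3% and 46.2%). The median distance to the TSS was 23.1 kb for lost, 21.3 kb for kept and 25.8 kb for gained sites. Lost sites had 1521 different nearest genes. Of these, 154 genes had 3 or more lost sites and 25 had 5 or more. The most were found near A630001O12Rik (8 sites), and 7 each near 2010111I01Rik, 3300005D01Rik, 4933427D06Rik, 4933433H22Rik, Ggta1, Snx24 and Tbc1d22a. Another lost site lay within 10 kb of 569 (26.1%), a kept site within 10 kb of 474 (21.7%) and a gained site within 10 kb of 64 (2.93%). Of the 1521 genes, 785 also had a kept site and 269 a gained site.

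Lost sites were counted near 168 genes in 10 lists. Lists of scavenger and efferocytosis genes, which serve the uptake of lipoproteins and dying cells, held 15 lost sites near 9 of 15 genes (Axl, Gas6, Itgav, Lrp1, Mertk, Mrc1, Scarb1, Stab1 and Trem2). These were 27.3% of the distal sites with 50 or more Veh tags near the listed genes, against 12.4% over all genes. Genes of the inflammatory response held 2 lost sites, near Ccl2 and Nfkbia, or 3.17% of 63, and 51 gained sites near 17 of 20 genes. TGF-beta genes had 7 lost sites (16.3%), LXR and lipid genes 10 (14.9%; Abcg1, Angptl4, Elovl5, Insig1, Mylip and Pparg) and growth factor genes 5 (13.9%; Csf1 and Igf1r). Chemotactic and purinergic receptors had 9 (13.8%), macrophage lineage factors 24 (11.9%; among them Fli1 with 6, and Klf4 and Runx1 with 4 each), cell cycle genes 5 (9.62%) and adhesion genes 8 (8.79%). Clock genes had 2 lost sites of 12 (16.7%), near Arntl and Per1. These shares describe the lists, which were not tested against each other.

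HDAC3, the enzyme that NCoR activates, fell along with NCoR. An HDAC3 peak lay within 500 bp of 1979 lost sites (90.7%), at a median distance of 14 bp between the centres. At these the median level was 99.7 and 97.9 tags per 10 M in the Veh libraries and 22.9 and 33.4 in the KLA libraries. HDAC3 was called lower (edgeR quasi-likelihood test, adjusted p under 0.05 and more than 2-fold) at 1817 (91.8%), against 11.3% of all HDAC3 peaks tested, and higher at 3 (0.152%), against 27.5%. The median log2 fold change was -1.90 at lost sites, 0.27 over all HDAC3 peaks, 0.07 at kept and 2.74 at gained sites. Without Veh replicate 1 or Veh replicate 2 the calls came to 928 and 935, with medians of -1.86 and -1.90. The KLA library of replicate 2 had 46.5% of its tags in peaks against 31.2% in replicate 1, and without it the calls came to 1925. In the bulk samples measured here, fewer cells with a bound site and less binding per cell cannot be told apart.

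At Angptl4 the HDAC3 level was 246 and 242 tags per 10 M with Veh and 5.27 and 5.27 with KLA (log2 change -5.51, SE 0.50, adjusted p = 4.22e-25 by edgeR). At B3gntl1 it was 178 and 175 against 2.93 and 15.8 (-4.65, SE 0.49, adjusted p = 3.6e-19). The 2 groups of libraries did not overlap at either site. Csf1, the macrophage growth factor, has a lost site 13.7 kb upstream with NCoR at 332 and 393 against 30.0 and 22.8, and HDAC3 there fell from 320 and 298 to 27 and 38.6 (-3.29, SE 0.41). At S1pr1, a receptor for sphingosine 1-phosphate, HDAC3 fell from 268 and 261 to 27.5 and 36.9 (-3.08, SE 0.41). The called rise with the lowest p was at Tbxas1, the thromboxane synthase gene, with 6.55 and 3.87 tags with Veh and 24 and 79 with KLA (3.22, SE 0.61, adjusted p = 1.55e-06), although the KLA libraries differed widely there.

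PU.1, the factor that defines the macrophage enhancer repertoire, was also reduced, though less steeply. A PU.1 peak lay at 1889 lost sites (86.6%), with medians of 107 and 105 tags per 10 M with Veh and 36.6 and 37.0 with KLA. It was called lower at 1451 (76.8%, against 21.7% of all PU.1 peaks) and higher at 2 (against 4.53%). The median log2 fold change was -1.46 at lost sites, -0.41 over all PU.1 peaks, -0.17 at kept sites and 1.60 at the 41.1% of gained sites with a PU.1 peak. The PU.1 counts without 1 library stayed between 1441 and 1453. Scaling moved them more, with 1004 called lower with TMM and 1005 with DESeq2, and a median of -1.05 at lost sites in both. Counts of joint calls and groups of sites by PU.1 call, given below, use library totals and were not counted under other scalings.

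The PU.1 fall with the lowest p was at Rnf150 (76.8 kb downstream of its TSS), from 336 and 377 to 60.2 and 50.3 tags per 10 M (-2.68, SE 0.11, edgeR adjusted p = 5.5e-48). At Klf4, 209.1 kb upstream, PU.1 fell from 364 and 376 to 95.5 and 93.0 (-1.97, SE 0.10). At Cd300a it fell from 179 and 203 to 45.1 and 35.7 (-2.24, SE 0.14). Other strong NCoR sites kept more of their PU.1. At Xirp1 PU.1 stood at 248 and 233 with Veh and at 126 and 129 with KLA (-0.92, SE 0.10), and at Ski at 176 and 171 against 135 and 137 (log2 change -0.35), both below a 2-fold change. The opposite was seen at Hspb7, where NCoR fell from 51.4 and 53.0 to 12.1 and 8.3 while PU.1 rose from 26.9 and 34.2 to 111 and 115 (1.90, SE 0.18, adjusted p = 5.19e-19).

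HDAC3 and PU.1 were called lower together at 1303 lost sites (59.7%), against 0.222% of kept sites and 5.69% of all distal NCoR peaks. HDAC3 alone was called lower at 326 sites with a PU.1 peak, and PU.1 alone at 67 sites with an HDAC3 peak. Where PU.1 was called lower, the median log2 change was -2.03 for HDAC3, -1.61 for p300 and -0.83 for p65. Where a PU.1 peak was present but not called lower (438 sites), the medians were -1.44, -0.81 and 0.07. PU.1 itself had a median of -0.72 at these 438 sites and -1.65 where it was called lower. A site not called lower was thus not a site with unchanged PU.1. Of the 292 lost sites with no PU.1 peak, 206 had an HDAC3 peak, with a median of -2.18. HDAC3 loss was seen with and without a called fall of PU.1, which leaves smaller falls of PU.1 uncalled. These values are descriptions over sites that share libraries.

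Fosl2, a subunit of AP-1, had a peak at 1451 lost sites (66.5%). Its medians were 69.1 and 56.6 tags per 10 M with Veh and 9.31 and 22.2 with KLA. It was called lower at 405 (27.9%, against 4.19% of all Fosl2 peaks). None was called higher by edgeR (background 11.4%), 2 were higher at an unadjusted p under 0.05, and DESeq2 called 3. The fold change was below 0 on the log2 scale at 1429 of the 1451 (98.5%), with a median of -1.90 against -0.14 over all Fosl2 peaks, 0.14 at kept and 3.21 at gained sites. The call count depended on single libraries: it was 685 without KLA replicate 1 and 1100 without KLA replicate 2. Without Veh replicate 1 or 2 edgeR called 0 lower, with 145 and 223 lower at an unadjusted p under 0.05, and with the replicate number as a block 38 were called. At 1700027F06Rik (11.2 kb upstream) Fosl2 fell from 258 and 159 to 0 and 2.34 (-6.97, SE 1.12, adjusted p = 1.24e-07).

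p300, which acetylates H3K27, had a peak at 1784 lost sites (81.8%), with medians of 53.9 and 49.3 tags per 10 M with Veh and 20.0 and 20.0 with KLA. It was called lower at 1138 (63.8%, against 12.9% of all p300 peaks) and higher at 17 (0.953%, against 42.1%). The median log2 fold change was -1.39, against 0.65 over all p300 peaks, 0.42 at kept and 3.24 at gained sites. The lowest p was found 5.4 kb downstream of the TSS of Lyz2, the lysozyme gene of myeloid cells, where p300 fell from 570 and 754 to 75.7 and 70.3 (-3.18, SE 0.16, edgeR adjusted p = 3.09e-10). At Angptl4 it fell from 52 and 26.3 to 1.02 and 0.54 (-5.51, SE 0.68). A rise was called at Gpi1, a glycolytic enzyme gene, from 38.9 and 23.7 to 178 and 143 (2.35, SE 0.24).

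PGC1β and ERK1 were profiled at lower levels. A PGC1β peak lay at 1336 lost sites (61.3%), with medians of 29.4 and 31.1 tags per 10 M with Veh and 14.2 and 12.0 with KLA. PGC1β was called lower at 602 (45.1%, against 6.35%) and higher at 7 (against 16.4%), with a median of -1.21 against 0.06 over all peaks and 0.34 at kept sites. The count was 272 without Veh replicate 1 and 206 without Veh replicate 2. The lowest p was at Tbc1d9, with 64.6 and 56.2 falling to 0 and 1.14 (-6.21, SE 0.65, edgeR adjusted p = 5.14e-06). At Hgfac PGC1β rose from 4.7 and 10.7 to 49.1 and 27.5 (2.24, SE 0.51). ERK1 had a peak at 941 lost sites (43.1%), with medians of 42.5 and 38.2 against 18.4 and 17.7. ERK1 was called lower at 183 (19.4%, against 2.53%) and higher at 3 (against 10.3%), with a median of -1.26 against 0.26 over all peaks. Its count was 88 without KLA replicate 1 and 56 without KLA replicate 2. A rise of ERK1 was called at E230013L22Rik, from 11 and 10.4 to 43 and 103 (2.75, SE 0.59, adjusted p = 0.0158).

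p65 had a peak at 1213 lost sites (55.6%), with medians of 35.9 and 41.9 tags per 10 M with Veh and 24.7 and 26.7 with KLA. It was called lower at 356 (29.3%, against 5.43% of all p65 peaks) and higher at 56 (4.62%, against 57.0%), with a median log2 change of -0.58 against 1.46 over all p65 peaks, 1.31 at kept and 4.01 at gained sites. Among the KLA comparisons, scaling moved the median over all peaks most for p65. With TMM 924 were called lower and 7 higher, with a median of -1.80, and with DESeq2 913 and 6. The KLA libraries held 34.1% to 37.1% of their tags in p65 peaks against 12.7% to 14.4% with Veh. Without KLA replicate 1 or 2 the count of lower calls was 99 or 119. The fall with the lowest p was at Tbc1d1, from 76.2 and 103 to 3.34 and 2.05 (-5.00, SE 0.49, adjusted p = 1.09e-05), where ERK1 also fell from 88.1 and 96.0 to 7.38 and 8.17 (-3.54, SE 0.50).

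The 56 lost sites with p65 called higher are described by their other values. Their number rests on single libraries and on the scaling, since it was 21 and 16 without KLA replicates 1 and 2, 70 and 102 without Veh replicates 1 and 2, and 7 with TMM. HDAC3 was called lower at 39 of them, but the median of p300 was -0.21 and that of H3K27ac in the DMSO experiment -0.22 (23 sites tested). At Hspb7, where PU.1 also rose, p65 rose from 8.76 and 14.9 to 203 and 199 tags per 10 M (4.08, SE 0.32, edgeR adjusted p = 2.57e-06). HDAC3 fell there with a log2 change of -1.87, and H3K27ac of WT cells rose from 50.4 and 50.9 to 93.7 and 114 (1.03). At this site NCoR and HDAC3 fell while p65, PU.1 and H3K27ac rose.

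Across the 7 factors, 553 lost sites (25.4%) had a peak of every factor and 44 (2.02%) had none, against 60.7% of kept sites with every factor. At least 1 factor was called lower at 2028 lost sites (93.0%), against 7.55% of kept sites and 19.4% of all distal NCoR peaks. At least 1 was called higher at 74 (3.39%), against 63.8% and 55.7%. HDAC3, PU.1 and p300 were all called lower at 845 (38.7%), against 0.143% and 3.32%. In the tertile of lost sites with the lowest NCoR ratio the medians were -2.57 for HDAC3, -1.88 for PU.1 and -1.93 for p300, and in the tertile with the highest ratio -1.48, -1.16 and -1.01.

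Scaling by TMM in place of library totals moved the median of all regions by more than 0.1 (log2) in 21 of 23 comparisons, by -1.61 to 0.61. The median log2 change at lost sites minus that over all peaks was -2.17 for HDAC3, -2.04 for p65 and for p300, -1.76 for Fosl2, -1.52 for ERK1, -1.27 for PGC1β and -1.05 for PU.1.

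**Figure D3:**
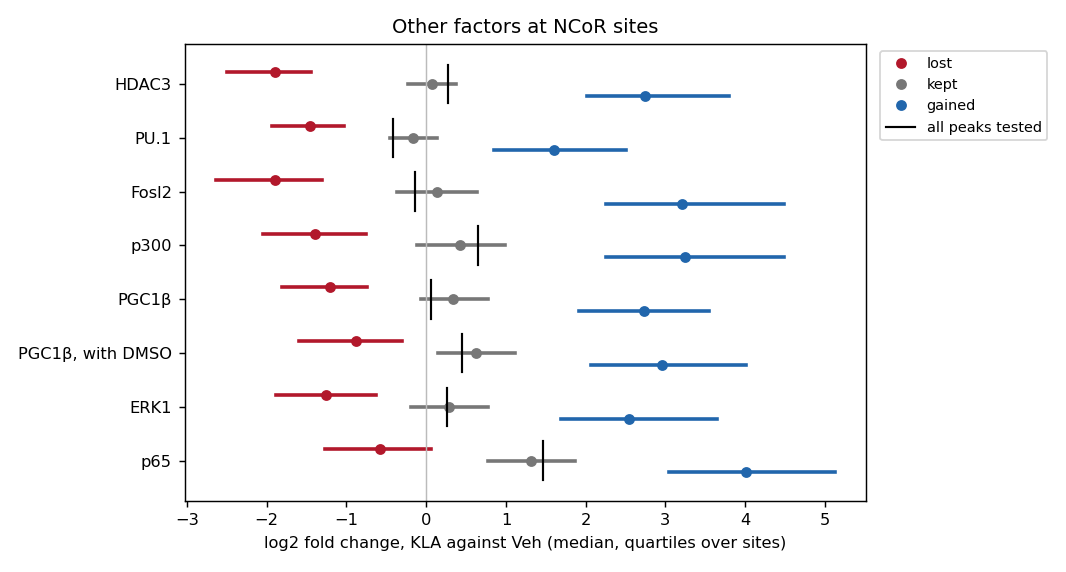
Log2 fold change with KLA of each factor's nearest peak within 500 bp of lost, kept and gained sites, shown as a point at the median and a bar over the quartiles of the sites, with a black line at the median of all peaks tested. At lost sites the medians run from -1.90 for HDAC3 and Fosl2 to -0.58 for p65, and at gained sites every median is above 0.

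The lists of genes were followed site by site for the factors. Among efferocytosis genes, the site in Axl, a receptor for dying cells, had NCoR at 540 and 610 tags per 10 M with Veh and 113 and 101 with KLA. HDAC3 at this site fell from 511 and 473 to 103 and 116 (-2.18, SE 0.41, edgeR adjusted p = 1.16e-06), and PU.1 from 450 and 499 to 231 and 211 (-1.10, SE 0.09). At Mertk, a related receptor, NCoR was at 217 and 255 against 58.3 and 75.4, while HDAC3 fell from 182 and 161 to 42.8 and 132 (-1.06, SE 0.37, adjusted p = 0.0128). At Itgav, 9.5 kb upstream, NCoR had 522 and 565 against 90.7 and 87.8, and HDAC3 450 and 389 against 70.9 and 183 (-1.78, SE 0.40). At Mertk and Itgav the KLA libraries of HDAC3 differed by more than 2-fold, so the size of that fall is poorly fixed.

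For lineage factors, Runx1 (25 kb downstream) had NCoR at 246 and 278 tags per 10 M against 68.8 and 77.5, PU.1 at 358 and 383 against 148 and 150 (-1.31, SE 0.09) and p300 at 227 and 214 against 48.6 and 60.0 (-2.02, SE 0.18). The Klf4 site lost Fosl2, from 203 and 123 to 16.3 and 30.4 (-2.76, SE 0.83), and p300, from 186 and 115 to 21 and 15.1 (-3.05, SE 0.28). Fli1, an ETS factor, had NCoR at 332 and 415 against 114 and 85.1. Near Cdk6, a kinase of the cell cycle, NCoR went from 415 and 479 to 68.8 and 51.9, and at Ccnd1, the cyclin D1 gene, from 82.4 and 87.1 to 13 and 7.61. PU.1 at the Ccnd1 site fell from 104 and 94.6 to 18.3 and 29.3 (-2.06, SE 0.20).

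Of the chemokine receptors, Ccr1 (14.9 kb downstream) had NCoR at 168 and 151 tags per 10 M against 22.7 and 31.8, with falls of PU.1 from 179 and 177 to 54.3 and 70.1 (-1.52, SE 0.13) and of p300 from 130 and 137 to 17.9 and 20.0 (-2.82, SE 0.24). Insig1, a regulator of sterol synthesis, showed HDAC3 falling from 297 and 273 to 47.5 and 19.3 (-2.97, SE 0.40) and p300 from 125 and 106 to 17.4 and 24.3. At Abcg1, a cholesterol exporter and LXR target, HDAC3 fell from 77.1 and 65.8 to 20.5 and 47.4 (-1.18, SE 0.43, edgeR adjusted p = 0.017). Arntl, the core clock activator, had NCoR at 74.1 and 53.0 against 17.0 and 10.4 and HDAC3 at 70.6 and 65.3 against 21.7 and 12.3 (-1.90, SE 0.46). At Per1 NCoR was at 59.7 and 49.4 against 12.1 and 6.92, near the minimum of the rule.

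H3K27ac at lost sites was measured mainly in the DMSO and RGFP966 libraries, over windows of 1000 bp on chromatin open with Veh. A window matched 993 lost sites, of which 933 passed the filter on low counts. Over the 993 the medians were 97.2 and 95.1 tags per 10 M with DMSO and Veh and 29.8 and 24.4 with DMSO and KLA. H3K27ac was called lower at 651 of the 933 (69.8%, against 28.1% of all windows) and higher at 7 (0.75%, against 6.73%). The median log2 change was -1.62, against -0.42 over all windows, -0.33 at kept sites and 1.29 at the 239 gained sites tested, since 7.96% of gained sites had a window. Among distal windows alone 36.7% were lower, with a median of -0.69. With TMM scaling 525 were lower and 13 higher. H3K27ac thus fell at most of the lost sites at which it was measured.

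The fall of H3K27ac with the lowest p was at 1700027F06Rik, from 514 and 456 to 22.7 and 19.4 tags per 10 M (-4.51, SE 0.26, edgeR adjusted p = 1.45e-64), with no overlap between the groups. At Klf4 it fell from 117 and 95.1 to 14.2 and 14.3 (-2.89, SE 0.30), at Cd300a from 220 and 213 to 29.8 and 19.4 (-3.11, SE 0.26), and at Rnf150 from 453 and 410 to 62.2 and 35.3 (-3.12, SE 0.23). At Dock2, a regulator of leukocyte migration, it fell from 342 and 351 to 102 and 76.6 (-1.95, SE 0.21). At Axl the change was not called (86.4 and 94.2 against 73.8 and 47.1). Where PU.1 was called lower, H3K27ac was lower at 76.4% of sites (median -1.77), and where a PU.1 peak was not, at 47.9% (median -0.97).

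Acetylation rose at a few lost sites. Nfkbia, which encodes the inhibitor IκBα and is a target of NFκB, has a lost site 3.8 kb downstream of its TSS. NCoR fell there from 458 and 576 to 132 and 129 tags per 10 M and HDAC3 from 533 and 465 to 145 and 214 (-1.49, SE 0.41), while H3K27ac rose from 115 and 125 to 464 and 429 (1.89, SE 0.21, edgeR adjusted p = 2.67e-18). At Itgav H3K27ac rose from 14.1 and 13.1 to 42.1 and 24.4 (1.31, SE 0.35, adjusted p = 0.000562). At Xirp1, one of the strongest NCoR sites, it was 70.6 and 72.4 with Veh and 90 and 83.3 with KLA (0.28, SE 0.25, adjusted p = 0.348).

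RGFP966 was given with KLA to ask what the enzyme activity of HDAC3 contributes. No library had RGFP966 with Veh. A rise with the inhibitor that does not depend on KLA and a smaller fall with KLA therefore cannot be told apart. At the 993 matched lost sites the medians with RGFP966 and KLA were 77.0 and 67.1 tags per 10 M, between those with DMSO and KLA and those with DMSO and Veh. Relative to DMSO and KLA, H3K27ac was called higher at 585 of 933 (62.7%, against 26.9% of all windows). None was called lower by edgeR (background 9.53%), 13 were lower at an unadjusted p under 0.05, and DESeq2 called 2. The median log2 change was 1.22, against 0.39 over all windows, 0.67 at kept and 0.20 at the 239 gained sites tested. Among distal windows alone, the closer comparison for distal sites, 40.1% were called higher and 0.684% lower, with a median of 0.85. With TMM scaling 399 were higher and 4 lower. The KLA response and the RGFP966 effect share the DMSO and KLA libraries, so a low value there moves both in opposite directions.

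Of the 993 matched lost sites, both DMSO and KLA libraries lay below both DMSO and Veh libraries at 848 (85.4%). At 772 of these both RGFP966 libraries lay above both DMSO and KLA libraries. They were still below the Veh libraries at 470 and reached the Veh range at 302 (35.6% of the 848). At kept sites 2137 of 4118 were below Veh in the same way, of which 1829 were above with RGFP966 and 1109 (51.9% of the 2137) reached the Veh range. These positions were not counted over all windows. The median level relative to Veh was 0.33 with DMSO and KLA and 0.769 with RGFP966 and KLA, against 0.791 and 1.19 at kept sites. Relative to Veh, H3K27ac with the inhibitor was thus below 1 at lost sites and above 1 at kept sites by the median.

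At Cd300a H3K27ac with RGFP966 and KLA was 249 and 229 tags per 10 M, above the 220 and 213 of resting cells (3.25 relative to DMSO and KLA, SE 0.26, edgeR adjusted p = 2.86e-32). At 1700027F06Rik it was 197 and 169, below the 514 and 456 with Veh (3.10, SE 0.26). The Klf4 site had 66.5 and 63.7 (2.18, SE 0.31). At Rnf150 it reached 107 and 89.4, which was not called (0.98), and at Nfkbia 357 and 266, below the 464 and 429 without the inhibitor but not called (-0.52). At Insig1 it was 287 and 227 against 102 and 98.5 (1.36, SE 0.21), and at Axl 187 and 158 (1.49, SE 0.23), above its Veh level of 86.4 and 94.2.

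**Figure D4:**
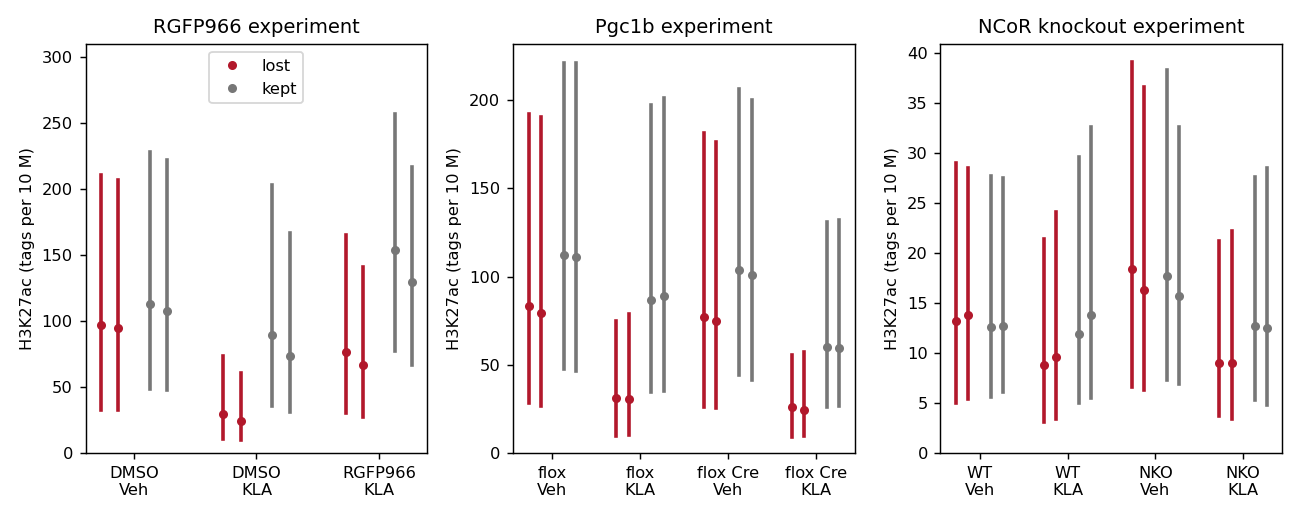
H3K27ac in tags per 10 M at regions within 500 bp of lost and kept sites, with 1 point (median) and bar (quartiles over the sites) per library, for the RGFP966, PGC1b flox/flox and NKO experiments on separate axes. At lost sites the medians fall from 97.2 and 95.1 to 29.8 and 24.4 with KLA and stand at 77.0 and 67.1 with RGFP966 and KLA, and the median of each KLA library without RGFP966 lies below the Veh libraries of its genotype in all 3 experiments.

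H3K27ac at promoters of the nearest genes was also counted. Among promoter windows of genes with at least 1 lost site, 348 of 1065 (32.7%) had H3K27ac called lower with DMSO and KLA, and among genes with 3 or more, 60 of 134 (44.8%), against 1449 of 9836 promoter windows of all genes (14.7%). The medians were -0.56, -0.88 and -0.17. Promoters of genes with gained sites and no lost site were lower at 86 of 1142 (7.53%) and higher at 203 (17.8%). The shift was smaller in WT of the NKO experiment. Of 1044 promoter regions of genes with a lost site, 6.51% were lower there (all genes 2.52%) and 3.26% higher (5.26%), with a median of 0.01 against 0.19. In PGC1b flox/flox cells without Cre 30.6% were lower (all genes 15.9%) and 1.2% higher (3.23%), with a median of -0.55 against -0.31. With RGFP966 and KLA relative to DMSO and KLA, the median log2 change at promoters was -0.19 for genes with a lost site, 0.11 with 3 or more and -0.57 over all promoters.

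The NKO libraries asked whether NCoR itself was needed for the acetylation changes. A region there matched only 656 lost sites, of which 515 passed the filter on low counts. The narrow regions held few tags. Over the 656 the medians were 13.2 and 13.8 per 10 M in WT with Veh and 8.8 and 9.65 with KLA. In WT cells 68 of the 515 (13.2%, against 3.72%) were lower with KLA and 19 (3.69%, against 6.49%) higher, with a median of -0.42 against 0.13 over all regions. The lower count was 42 without WT Veh replicate 1 and 37 without WT Veh replicate 2. With DESeq2 75 were lower and 10 higher. In NKO cells the medians over the 656 were 18.4 and 16.3 with Veh and 9.03 and 9.03 with KLA. Of the 515, 121 (23.5%, against 7.96%) were lower and 4 (0.777%, against 2.75%) higher, with a median of -0.80 against -0.20.

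Between NKO and WT few lost sites were called. With Veh the median was 0.38 against 0.30 over all regions, and 11 (2.14%, against 0.973%) were called higher in NKO. None was called lower by edgeR (background 0.0270%) or DESeq2, and 3 were lower at an unadjusted p under 0.05. TMM left 1 of the 11, and without WT Veh replicate 1 or 2, or NKO Veh replicate 1 or 2, the count was 2, 0, 1 and 6. With KLA 8 were lower and 8 higher (1.55% each, against 0.389% and 0.400%), with a median of -0.09 against -0.04, and 8 lower and 10 higher with TMM. The lower count with KLA was 4 and 1 without NKO KLA replicates 1 and 2, 4 and 2 without WT KLA replicates 1 and 2, and 4 without either WT Veh library. The interaction of genotype and KLA was called at 7 (1.36%, against 0.67%), all with a more negative response in NKO, and its median of -0.42 was close to -0.34 over all regions and -0.43 at kept sites. None was called in the other direction (background 0.0270%), with 10 at an unadjusted p under 0.05, and TMM and DESeq2 called 0 in either direction. By edgeR the share with a more negative response was 0.882% among distal regions alone and 1.11% at kept sites.

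Single sites in this experiment differed more. At A630001O12Rik, 90.9 kb upstream, H3K27ac of WT rose with KLA from 30.9 and 28.5 to 51.6 and 78.6 tags per 10 M, while in NKO it stood at 59 and 51.1 with Veh and 32.9 and 25.7 with KLA, less than a 2-fold change (interaction -2.02, SE 0.41, edgeR adjusted p = 0.00773). The wider window at the same site went the other way in cells of the other experiments: it held 290 and 258 with DMSO and Veh against 150 and 132 with DMSO and KLA (-0.95, not called), and fell from 339 and 307 to 136 and 167 in PGC1b flox/flox cells without Cre (-1.09, adjusted p = 6.99e-20). At Gas6, the ligand of Axl and Mertk, NKO fell from 102 and 75.5 to 7.43 and 4.86 and was below WT with KLA, which held 21.4 and 20.0 (-1.71, SE 0.40, adjusted p = 0.0177). Near A230028O05Rik, 7.0 kb upstream, WT rose from 61.2 and 57.0 to 138 and 131, while NKO was already at 145 and 106 with Veh and at 143 and 145 with KLA. The difference with Veh was 1.08 (SE 0.19, adjusted p = 0.000643) and with KLA 0.10 (SE 0.17, adjusted p = 0.866). The narrow region at Itgav rose in WT from 1.89 and 2.55 to 22.6 and 18.6 (3.16, SE 0.67).

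In the PGC1b flox/flox libraries the fall of H3K27ac was seen again, in an experiment of its own. The medians at the 993 matched lost sites were 83.6 and 79.7 tags per 10 M with Veh and 31.2 and 31.0 with KLA without Cre. With LysMCre they were 77.3 and 74.9 against 26 and 24.7. Without Cre 568 of 938 (60.6%, against 25.6%) were lower with KLA and 8 (against 5.22%) higher, and with LysMCre 640 (68.2%, against 32.5%) and 6 (against 4.18%). TMM gave 384 and 401 lower in these comparisons. Medians were -1.28 and -1.5, against -0.45 and -0.62 over all windows. Among distal windows alone 32.0% and 41.2% were lower, with medians of -0.61 and -0.84.

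Between LysMCre and cells without Cre, few lost sites were called. With Veh 2 were lower (0.213%, against 0.290%), with a median of -0.11 against -0.20. None was higher by edgeR (background 0.107%) or DESeq2, with 19 at an unadjusted p under 0.05, and TMM called 2 higher and 0 lower. Without LysMCre Veh replicate 1 or either Veh library without Cre the lower count was 0, 1 and 0. With KLA 70 were lower (7.46%, against 6.81%) and 14 higher (1.49%, against 0.702%), with a median of -0.35 against -0.38 over all windows and -0.49 at kept sites. With TMM 8 were lower and 41 higher and with DESeq2 5 and 29, so the direction of these calls rests on the scaling. By library totals, 8.91% of distal windows alone were lower with KLA and 0.927% higher, with a median of -0.4. At kept sites 11.3% were lower and 0.296% higher, so the share of lower calls at lost sites was below both. The interaction was called at 69 lost sites, with 56 more negative in LysMCre cells (5.97%, against 4.60%) and 13 less negative (1.39%, against 0.770%), and with TMM 18 and 23. Among distal windows alone 6.42% were more negative and 0.855% less negative, and at kept sites 9.1% and 0.419%.

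Single sites stood out here also, in both directions. At Klf9, a target of glucocorticoid and thyroid hormone receptors, H3K27ac fell without Cre from 198 and 163 to 37.4 and 37.2 tags per 10 M, while with LysMCre it stood at 155 and 142 against 92.5 and 95.1, less than a 2-fold change (interaction 1.62, SE 0.24, edgeR adjusted p = 2.38e-09). At Gm15569 the order was reversed, with 531 and 497 against 269 and 288 without Cre and 517 and 545 against 104 and 87.9 with LysMCre (interaction -1.59, SE 0.14, adjusted p = 9.34e-27). At P2ry6, a receptor for UDP, KLA left 385 and 402 without Cre and 126 and 178 with LysMCre (-1.36, SE 0.10). These 3 sites were named for the lowest p in their comparison.

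NCoR stayed low at the lost sites when ERK was inhibited. NCoR with ERKi and KLA had medians of 13.5 and 12.1 tags per 10 M, and both ERKi libraries lay below both KLA libraries at 1145 lost sites (52.5%) and above them at 222 (10.2%). At kept sites they lay below at 96.2% and above at 0.3%, and at gained sites below at 96.9% and above at 0.262%. These positions were not counted over all NCoR peaks. The median ratio of (ERKi + 5) to (KLA + 5) was 0.716 at lost, 0.446 at kept and 0.374 at gained sites. The ERKi libraries had 15.0% to 15.8% of their tags in NCoR peaks against 32.0% to 37.9% in the KLA and Veh libraries, and since the KLA libraries chose the sites, these are descriptions without a test. The library names of the ERKi libraries carry another date code than those of the Veh and KLA libraries, and no KLA library with DMSO was in that table, so ERKi and a difference between the dates cannot be told apart. PGC1β with DMSO had medians of 34.9 and 45.2 with Veh and 23.7 and 20.8 with KLA, and 21.9 and 22 with ERKi and KLA. In this experiment PGC1β was lower with KLA at 186 of 1501 (12.4%, against 1.23%) and higher at 9 (against 16.4%), with a median of -0.88 against 0.45. The count was 53 without DMSO Veh replicate 1, 26 without replicate 2, and 333 with TMM. ERKi changed 3 sites in each direction (0.2% each, against 0.178% lower and 0.108% higher), with a median of 0.01 against -0.20 over all peaks. TMM called 1 lower and 5 higher and DESeq2 7 and 19. The lower count was 0 or 1 without any 1 of the 6 libraries.

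Klf4 and Fnip2 were the sites with the lowest p for ERKi. At Klf4 PGC1β fell with KLA from 123 and 176 to 9.87 and 14.9 tags per 10 M (-3.54, SE 0.46) and stood at 105 and 85.3 with ERKi and KLA (2.89, SE 0.47, edgeR adjusted p = 0.0114). At Fnip2 it was 73.9 and 111 with Veh and 96.7 and 109 with KLA, and 20.3 and 14.2 with ERKi (-2.58, SE 0.46, adjusted p = 0.0207). At Nfkbia PGC1β rose with KLA from 102 and 144 to 270 and 243 (1.07, SE 0.25, adjusted p = 0.00376).

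In bone marrow cells differentiating toward osteoclasts, a p300 peak lay at 813 lost sites. Its medians were 14.1 and 10.6 tags per 10 M at day 0 and 40.1 and 39.7 at day 4. p300 was higher at 488 (60.0%, against 62.2% of all peaks) and lower at 1 (against 0.248%), with a median of 1.71 against 1.84. Among distal peaks alone 70.6% were higher, with a median of 2.06, and at kept sites 63.5%, with a median of 1.69. With TMM 28 were higher and 27 lower, and without day 4 replicate 1 or 2 the higher count was 106 or 111. At Tmed10 p300 rose from 17.6 and 19.2 to 376 and 429 (4.46, SE 0.36, edgeR adjusted p = 4.58e-05). ERK1 was measured at 699 lost sites, with medians of 16.4 and 17.9 against 40.4 and 28.7, and was higher at 22 (3.15%, against 2.33%), or 49 and 48 without day 0 replicate 1 or 2 and 0 without either day 4 library. None was lower by edgeR (background 0.0267%), at an unadjusted p under 0.05 or by DESeq2. The IL-6 receptor gene Il6ra had 0 and 3.15 ERK1 tags at day 0 and 57.6 and 32.3 at day 4 (4.81, SE 0.93).

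The sequences under the lost sites were compared by exact matches on both strands in the central 200 bp, for 2179 lost sites on reference chromosomes and 44063 distal peaks. The half-site AGGTCA was found in 578 lost sites (26.5%), against 17.4% of kept, 12.4% of gained and 16.6% of all distal peaks. The longer form TAGGTCA, which contains AGGTCA and is bound by Rev-erb and ROR receptors, was found in 5.37%, against 2.78%, 2.36% and 2.88%. Of the printed sites, Xirp1 holds 1 AGGTCA match and Ski 2, while Angptl4, B3gntl1, Itgav, Klf4 and Cd300a hold none.

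PU.1 and RUNX letters were also more frequent. GGAAGT was in 53.1% of lost sites, against 49.2% of kept, 28.7% of gained and 43.3% of all distal peaks, and GAGGAAGT, which contains it, in 15.6%, 13.9%, 5.47% and 11.5%. The RUNX site TGTGGTT was in 15.6%, against 12.0%, 8.71% and 10.8%, and the MAF half-site TGCTGAC in 8.77%, against 7.23%, 3.73% and 6.29%. SMAD letters GTCTAGAC were rare, at 0.551% against 0.29% of all distal peaks. The E-box CACGTG (4.13% against 3.43%), the MEF2 site (4.22% against 3.84%), TTCCNNGAA of BCL6 and STAT factors (5.0% against 4.41%), GGGNGGGG of KLF and SP factors (10.6% against 9.16%) and the overlapping EGR letters GNGGGNGG (19.5% against 17.5%) differed little.

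Letters of AP-1, NFκB, IRF and C/EBP factors were less frequent. TGANTCA was in 13.5% of lost sites, against 28.0% of kept, 24.6% of gained and 23.5% of all distal peaks. GGGNNTTCC was in 3.3%, against 5.16%, 13.1% and 5.44%, the IRF letters GAAANNGA in 19.0%, against 24.8%, 36% and 25.2%, and TTGCNNAA in 13.2%, against 19.2%, 20.8% and 17.4%. The D-box TTANGTAA was in 0.964% against 3.50% of all distal peaks, and TCANGTGA in 3.3% against 3.72%. Base composition differed alongside: the median GC content was 49.5% at lost, 46.0% at kept, 41.5% at gained and 45.5% at all distal peaks, and its part in the motif shares was not tested. Centres lay in repeats at 16.4%, 20.0%, 25.7% and 23%.

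Within the lost sites the letters went with small differences in response. With and without AGGTCA the median log2 change of HDAC3 was -1.83 and -1.91, and that of H3K27ac with DMSO and KLA -1.76 and -1.57. With and without TGANTCA the median of p300 was -1.11 and -1.44, and that of H3K27ac -1.78 and -1.60. For comparison, the quartiles over all tested lost sites were -2.50 and -1.44 for HDAC3 and -2.32 and -0.90 for H3K27ac.

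**Figure D5:**
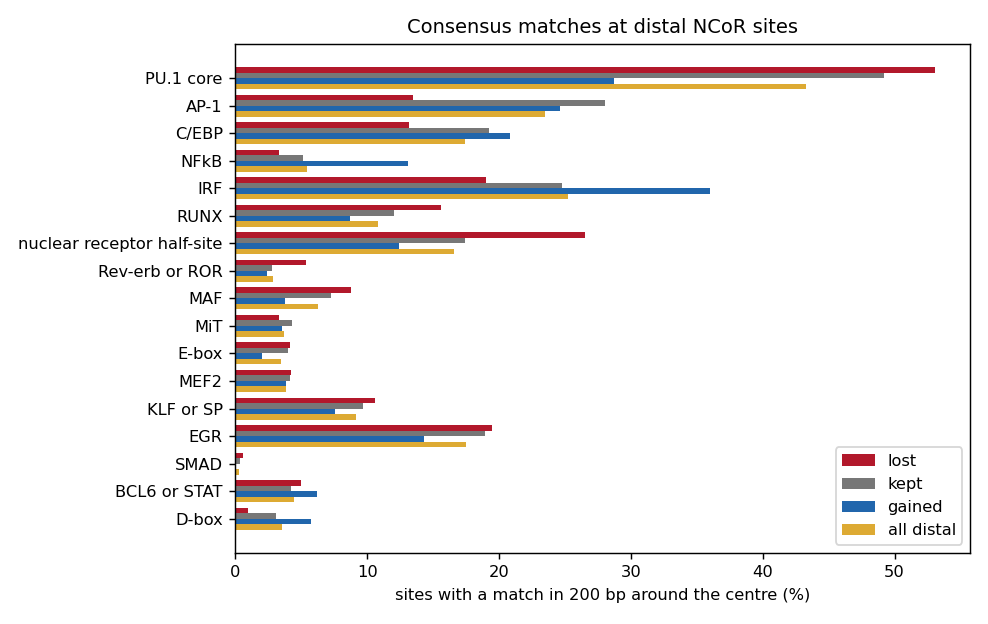
Share of lost, kept, gained and all distal NCoR sites with an exact match to each motif in the central 200 bp, in percent, without the longer PU.1 form. AGGTCA is in 26.5% of lost against 16.6% of all distal sites, and TGANTCA in 13.5% against 23.5%.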

How the data were processed

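The authors deposited raw tag counts per region and library for 70 ChIP-seq libraries in 15 tables. The submitters' processing notes and the study's methods name Bowtie2, mm10 and HOMER, with versions not given in the sources used here. The authors kept factor peaks that were reproducible in both replicates, joined the peaks of the conditions of a table, and took regions of open chromatin for H3K27ac. A position gave at most 3 tags. Factor chromatin was fixed with disuccinimidyl glutarate and formaldehyde and H3K27ac chromatin with formaldehyde alone. The 30 input samples were not analysed here.

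Counts were scaled by the library totals of the file headers (4.30 to 21.5 M) to tags per 10 M. Each table was fitted once with the two-sided quasi-likelihood test of edgeR 4.0.16 under R 4.3.3, over peaks with at least 4 tags, or H3K27ac regions with at least 16, in 1 library or more. Benjamini-Hochberg adjustment covered all tested regions of a comparison, and calls needed an adjusted p under 0.05 and over 2-fold. The standard error was the log2 change divided by the square root of F. Lost sites were matched to the nearest region centre within 500 bp. In all, 23 comparisons were tested. Numbers 1 and 2 did not pair the libraries, since deviations of same-numbered libraries correlated at -0.027 to 0.088 over 31 pairs of groups. No 2 replicates agreed within counting noise (chi-square per region of at least 1.31). For 1 ERK1 library of day 4 the title gives replicate 2 and the description replicate 3.

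The members, gene lists and tests were chosen with earlier results of these data known. Sites were named by fixed rules: the 10 lowest ratios, the 5 highest Veh means, the 2 nearest to the threshold on each side, the strongest site of up to 3 genes per list, the 5 genes with most members (here 8 genes, because 7 tied), and the lowest p among calls in each direction of each comparison. The fit was tested on simulated data. The alternatives were TMM, DESeq2 1.42.0, no filter, other matching distances, a replicate block and each library left out. Python 3.11.15, pandas 2.3.3, numpy 2.4.6 and matplotlib 3.10.9 were used for the other steps.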

Additional observations from a re-analysis of the deposited data

Results flagged for a closer look

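The KLA response of H3K27ac differed between genotypes at some lost sites, by the interaction term of the edgeR fit. Between NKO and WT, 7 of 515 tested lost sites were called, and the site near A630001O12Rik had the lowest p, with an interaction of -2.02. With TMM or DESeq2 none of the 7 calls was made, while 37 sites were more negative and 20 less negative at an unadjusted p under 0.05 with TMM. Leaving out 1 library gave 0 to 12 calls.

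Between LysMCre and no Cre on the PGC1b flox/flox background, 69 of 938 lost sites were called. The site near Gm15569 had the lowest p in the negative direction, with an interaction of -1.59, and the site near Klf9 in the positive direction, with 1.62. With TMM 41 were called, 18 negative and 23 positive. Over all regions the shares were 0.67% for the negative NKO interaction (1.36% at lost sites), and 4.60% and 0.770% for the negative and positive PGC1b interaction (5.97% and 1.39% at lost sites). Among distal regions alone these shares were 0.882%, 6.42% and 0.855%, and at kept sites 1.11%, 9.1% and 0.419%. The negative PGC1b share at lost sites was thus below that of distal regions and of kept sites. No cause was tested.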

How the results depend on the processing

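The number of lost sites was 2222 with TMM, 2710 with nothing added and 2577 with 1 added to the means, and 1606 beyond 10000 bp from a TSS, and leaving out 1 NCoR library gave 1857 to 2807. Counts of lost sites called in the 23 comparisons moved by at most 1.5 times without a filter and with centres within 1000 bp. With centres within 100 bp they moved in 3: H3K27ac lower with KLA in WT (45), lower in NKO with KLA (5) and the NKO interaction (4). With the replicate block they moved in 3: Fosl2 (38), ERKi effect on PGC1β (1) and LysMCre with Veh (1). The replicate block changed no other count by more than 1.5 times, and the numbers do not pair the libraries.

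Scaling moved more of them. With TMM and with DESeq2 the counts lower were 924 and 913 for p65, 751 and 852 for Fosl2, 333 and 385 for PGC1β with DMSO, and 1 and 7 for the ERKi effect. They were 401 and 383 for H3K27ac with KLA in PGC1b flox/flox, LysMCre, 8 and 5 for LysMCre with KLA, 18 and 17 for its interaction, and 0 and 0 for LysMCre with Veh (8 lower at an unadjusted p under 0.05 with TMM). The NKO interaction was at 0 and 0 (37 with TMM at an unadjusted p), NKO higher with Veh at 1 and 1, p300 at day 4 at 28 and 10, and ERK1 at day 4 at 0 and 0 (43 with TMM at an unadjusted p). With DESeq2 alone ERK1 with KLA came to 289 and H3K27ac in PGC1b flox/flox without Cre to 370. The median turned sign with TMM for LysMCre with Veh (0.09) and with KLA (0.04).

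Leaving out 1 library, lower counts ran from 928 to 1925 for HDAC3, 1441 to 1453 for PU.1, 0 to 1100 for Fosl2, 958 to 1185 for p300, 99 to 440 for p65, 206 to 790 for PGC1β, 26 to 219 for PGC1β with DMSO, 0 to 1 for ERKi and 56 to 168 for ERK1. For H3K27ac they ran from 37 to 76 in WT, 83 to 135 in NKO, 1 to 9 for NKO with KLA, 0 to 12 for the NKO interaction, 610 to 687 with DMSO, 533 to 568 without Cre, 609 to 644 with LysMCre, 0 to 2 for LysMCre with Veh, 70 to 88 with KLA and 45 to 66 for the interaction. Higher counts ran from 494 to 608 for RGFP966, 0 to 15 for NKO with Veh, 106 to 579 for p300 at day 4 and 0 to 49 for ERK1 at day 4. Counts in the rarer direction ran from 16 to 102 for p65 higher, 7 to 22 for p300 higher, 0 to 15 for PGC1β higher and 9 to 20 for H3K27ac higher in WT. They ran from 1 to 7 for NKO higher with KLA, 10 to 25 for LysMCre higher with KLA and 8 to 20 for the less negative interaction. With 1 library in a group, its spread is taken to be that of the other groups. Where the cause of a change is not given by the construction of the alternative, it was not tested. Among 1424 values at named sites under the alternatives, 1282 kept their call, 142 lost it and 0 changed direction, and 59 of the 160 pairs of site and comparison lost it under at least 1 alternative. The low counts of the NKO table limit what can be seen there, and sites that open with KLA have no H3K27ac window in the other tables.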
